A study of Mus musculus with 24 samples.

Results

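The array carried 61 genes named as serpins, out of 34844 gene names in all. Each gene was represented by the brightest of its probes. A gene counted as detected if the scanner software called that probe well above background on every array of 1 or more of the 8 groups. By that rule 29 of the 61 serpin genes were detected, against 20023 of all 34844 gene names. The cells were live cardiomyocytes isolated from mouse hearts, and each sample was hybridised on an Agilent array with 1 colour. The groups, each of 3 arrays, were Top2b-deleted doxorubicin, Top2b-deleted PBS, WT doxorubicin and WT PBS, each at 16 h and at 72 h after a single intraperitoneal injection. The doxorubicin dose was 25 mg/kg. Top2b-deleted mice lack Top2b, which encodes the beta form of topoisomerase II, in the heart by a conditional deletion (written Top2b-/- in the labels), and WT mice are labelled wild type. All 8 groups share the strain background 129SvEv/C57BL/6, the age of 6 weeks and a male label. The labels do not name the Cre driver, and they do not say whether WT mice carried a Cre.

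Serpins are proteins of 1 shared fold, most of which inhibit proteases by a suicide mechanism. The protease cuts an exposed loop, the loop inserts into the body of the serpin, and the protease is trapped as a covalent complex. Some members have no inhibitory role and carry hormones or fold other proteins. In mice the Serpina3 genes and the Serpinb genes have multiplied into clusters of close relatives, so that 1 human gene can have several mouse counterparts. In the heart, serpins are known as brakes on clotting, as inhibitors of leukocyte proteases, and, for Serpinh1, as the collagen chaperone of the endoplasmic reticulum.

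Several features of the libraries bear on every comparison. Top2b was at 2.54 to 3.34 on the 6 Top2b-deleted arrays at 16 h, against 4.03 to 4.39 on the 6 WT arrays. At 72 h it was at 2.13 to 3.07 on Top2b-deleted arrays, against 3.25 to 3.65 on WT arrays. Genotype was taken from the sample titles, and the genotype characteristic contradicts the title for 4 arrays at 16 h: WT PBS 3, WT doxorubicin 1, Top2b-deleted PBS 3 and Top2b-deleted doxorubicin 1. Top2b on these 4 arrays was at 4.04, 4.39, 3.03 and 2.54 in that order. The ranges above include these 4 arrays. On the remaining arrays of 16 h Top2b was at 4.03 to 4.38 in WT and at 2.86 to 3.34 in Top2b-deleted cells. The contradictory arrays titled WT lay above all of the remaining Top2b-deleted arrays. Those titled Top2b-deleted lay below all of the remaining WT arrays. Ddx3y, a Y-linked gene, was well above background on 7 of 24 arrays, although every sample is labelled male. These were 3 of 3 WT PBS arrays, 1 array of each doxorubicin group at 16 h, and 1 array each of WT PBS and Top2b-deleted PBS at 72 h. Of 4 Esr1 probes, for the estrogen receptor alpha gene, 1 was well above background on all 12 Top2b-deleted arrays (5.04 to 7.10), against 0 of 3 WT PBS and 2 of 3 WT doxorubicin arrays at 16 h (0.60 and 1.05). At 72 h it was above background on 2 of 3 WT doxorubicin arrays (-2.06 and 6.62) and 2 of 3 WT PBS arrays (8.41 and 8.58). At 16 h slide 1 held all 6 WT arrays and Top2b-deleted PBS 1 and 2, and slide 2 held Top2b-deleted PBS 3 and the 3 Top2b-deleted doxorubicin arrays. At 72 h slide 3 held replicates 2 and 3 of every group and slide 4 held replicate 4. Here and below, levels are log2 processed signals minus the 75th percentile of the array, so 0 is that percentile, and levels of different genes cannot be set against each other. Cardiomyocyte markers were at high levels throughout, with a summed log2 level of 12.41 to 13.44 on every array. In bulk RNA, a change in the number of cells of a type and a change in RNA per cell cannot be told apart.

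Probes of close relatives are shown first, since they limit which serpin a value belongs to. The probes of Serpinb6a and Serpinb6c, in the antiprotease cluster of chromosome 13, matched in all but 3 of 42 aligned bases, and those of Serpina1a and Serpina1c, genes of alpha-1 antitrypsin on chromosome 12, in all but 1 of 51. The 30 bases of each pair that hold the differences are given below, 5′ to 3′ on the minus strand of mm9, with the bases that differ in capitals. They lie at chr13:34009825-34009854, chr13:33971714-33971743, chr12:105091849-105091878 and chr12:105133186-105133215.
Serpinb6a: agtgaccttatccataagtgcaatgGcaAT
Serpinb6c: agtgaccttatccataagtgcaatgAcaGC
Serpina1a: taaAatgtcatccttccttctgaattgggt
Serpina1c: taaGatgtcatccttccttctgaattgggt
The Serpinb6e probe also matched the Serpinb6c probe in all but 6 of 47 bases, so the values of these genes may share signal. The probes used for Serpina3f, Serpina3g, Serpina3h, Serpina3i and Serpina3n differed from each other in at least 23 of the aligned bases in every pair. The Serpina3b probe differed from that of Serpina3f in 18 of 54. Probes were compared only with probes, so whether these also read transcripts of relatives was not tested. A second, dimmer Serpina3i probe was not used, and it matched the Serpina3h probe in all but 6 of 57 bases.

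Promoters of the Serpina3 genes are shown because Serpina3g, Serpina3i and Serpina3n rose together after doxorubicin in WT cells. RefSeq promoters (GRCm38.p6) were matched by symbol for 23 of the 29 detected serpins, and the 250 bases before the start were searched. The motif searched was TTCNNNGAA, the core of the sites bound by STAT factors, which reads the same on both strands as written. Heat-shock (GAANNTTC, TTCNNGAA), ISRE-like, CCAAT and TATAAA motifs were searched too, and their sequences are not shown. Of 28 windows of detected serpins GAANNTTC was in 0 (6.69% of all windows), TTCNNGAA in 1 (7.17%) and TATAAA in 3 (7.59%). The ISRE-like motif was in 0 (1.53%) and its reverse in 2 (1.46%). CCAAT was in 9 (19.1%) and its reverse in 4 (19.7%). TTCNNNGAA was present in 7.02% of all 32851 promoter windows. It was present in 8 of the 28 serpin windows. These windows belong to 6 of the 23 serpin genes, Serpina1f, Serpina3f, Serpina3g, Serpina3i, Serpina11 and Serpinb6a. The 30 bases of the promoter of each detected Serpina3 gene with a RefSeq promoter that are most like the site of Serpina3g are given next, on the plus strand of chromosome 12, with the motif in capitals.
Serpina3g: tatagTTCCCAGAAatcacccggtctgtcc
Serpina3i: gcttgTTCCCAGAAatcacccagtctgtcc
Serpina3f: tctatTTCCTAGAAatcacccatttcccat
Serpina3n: ccatgttaccagaaatcatccagtctgttc
Serpina3b: ccttgtcaccataaatcatcctatctgtcc
They lie at chr12:104236109-104236138, chr12:104263015-104263044, chr12:104214418-104214447, chr12:104406580-104406609 and chr12:104127868-104127897 in the order given. The window of Serpina3i shared 26 of 30 bases with Serpina3g, Serpina3n shared 22, Serpina3b shared 21 and Serpina3f shared 19. These letters were absent from the Serpina3n window of 250 bases, printed whole here with that of Serpina3g (chr12:104406458-104406707 and chr12:104235897-104236146).
Serpina3n: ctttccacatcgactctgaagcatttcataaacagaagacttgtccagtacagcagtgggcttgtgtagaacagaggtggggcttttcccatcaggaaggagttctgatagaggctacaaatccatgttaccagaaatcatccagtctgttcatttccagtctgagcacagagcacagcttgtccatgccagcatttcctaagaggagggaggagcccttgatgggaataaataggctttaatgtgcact
Serpina3g: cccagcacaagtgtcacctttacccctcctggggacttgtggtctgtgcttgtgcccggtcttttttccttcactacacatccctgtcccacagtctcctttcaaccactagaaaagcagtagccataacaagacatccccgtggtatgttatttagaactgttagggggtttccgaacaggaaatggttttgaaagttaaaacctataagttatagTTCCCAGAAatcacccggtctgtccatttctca
A match describes letters only and says nothing of a factor bound there.

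Of the 29 detected serpins, 19 were well above background on all 24 arrays, and 28 were tested at 16 h and 27 at 72 h. The remaining 32 serpins on the array were not detected. Of these, 24 were above background on no array and 8 on 1 or 2 arrays. Just inside the rule was Serpina3f, above background on 5 arrays and in 1 whole group, WT doxorubicin at 16 h. Serpina3g and Serpinb1c were each so on 7 arrays and in 2 whole groups. For Serpina3g these were WT doxorubicin at 16 h and at 72 h, and for Serpinb1c both Top2b-deleted groups of 16 h. These genes were thus tested only through groups where they were high, so the filter and their p-values share readings. They are included in the counts and medians below. Just outside the rule were Serpina1d, Serpina3c, Serpina3m, Serpina5, Serpinb3b and Serpinb11, on 2 arrays each, and Serpina6 and Serpinb12, on 1 array each. The plasma serpins Serpinc1 (antithrombin), Serpind1 (heparin cofactor II), Serpinf2 (alpha-2 antiplasmin) and Serpina7 (thyroxine-binding globulin) were above background on 0 of 24 arrays. Among the detected genes 13 lay on chromosome 12 (all of the Serpina class), 8 on chromosome 13 (all of the Serpinb class), and 3 on chromosome 1. Serpinf1, Serping1, Serpinh1 and Serpini1 lay singly on chromosomes 11, 2, 7 and 3.

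**Figure D1:**
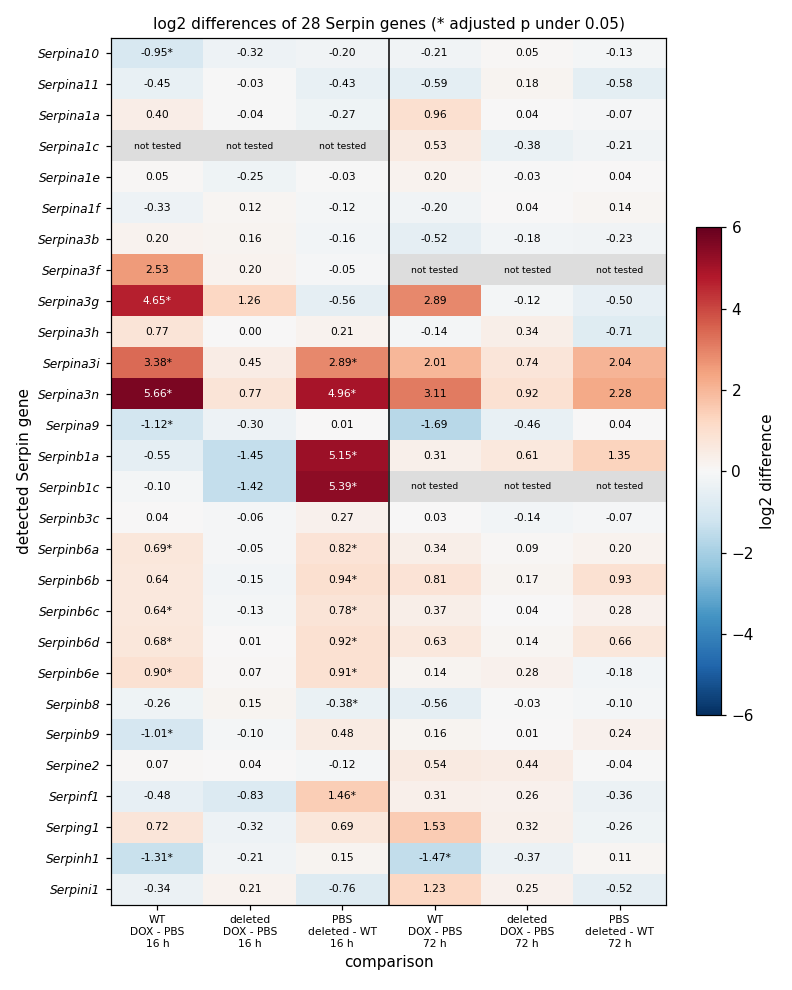
Log2 differences of 28 detected Serpin genes (rows) in 6 comparisons (columns, 3 arrays per group), with red for higher and blue for lower. An asterisk marks an adjusted p under the threshold, and grey cells were not tested. The WT doxorubicin column at 16 h has 11 marked genes, both Top2b-deleted doxorubicin columns have 0, and the Top2b-deleted against WT column in PBS at 16 h has 11. Values of Serpina3f, Serpina3g, Serpina3i and Serpinb1c set against readings not well above background are not measured sizes. Those of Serpina3n against WT PBS at 16 h rest in part on such a reading.

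The first comparison asked what doxorubicin did to serpins in WT cardiomyocytes within 16 h. Serpina3g, Serpina3i and Serpina3n, relatives of human antichymotrypsin, rose most. Serpinb6a, Serpinb6c, Serpinb6d and Serpinb6e rose by less than 1 on the log2 scale. Serpinh1, Serpina9, Serpina10 and Serpinb9 fell. In all 12 of 28 tested serpins passed an adjusted p of 0.05 in limma, 8 higher and 4 lower. Among all 18727 genes tested 27.8% passed, 13.7% higher and 14.1% lower. The median difference was 0.14 over the serpins and -0.03 over all genes. Without the 4 arrays of contradictory genotype 11 serpins passed, with the presence of Ddx3y as a covariate 15, and on the arrays with Ddx3y signal alone (1 doxorubicin array against 3 PBS arrays, whose spread is assumed for the lone array) 10, without Serpina9, Serpinb6c, Serpinb6d and Serpinb6e. With genotype taken from the characteristic, 0 passed. The shares of all genes under these alternatives are not given here, so their counts are no result about serpins in particular.

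Serpina3n is an extracellular inhibitor and an acute-phase gene. It was at 2.98, 1.53 and 1.81 on the WT doxorubicin arrays at 16 h, against -3.03, -5.84 and -1.80 on the WT PBS arrays. The groups did not overlap, and the second PBS array was not well above background. The difference was 5.66 ± 0.84 (SE, limma adjusted p = 0.00105), and 4.52 to 6.54 as single arrays were left out. Serpina3g, an intracellular inhibitor of cathepsins, was at 1.93, 0.58 and -1.57 on WT doxorubicin arrays. On the WT PBS arrays it read -3.88, -5.31 and -3.85, none well above background. It was therefore at least 14.1-fold higher (limma adjusted p = 0.00221). The bound takes as the PBS level of each array the dimmest signal still well above background, or the probe's reading if that was brighter. Only the WT doxorubicin group brought Serpina3g into the 16 h test, so the filter and the p-value share readings. Serpina3i was at 0.02, -1.96 and -1.89 on WT doxorubicin arrays, against -5.50, -4.76 and -3.71 on WT PBS arrays, where none of the 3 PBS readings was well above background. It was at least 4.71-fold higher (limma adjusted p = 0.00297). With the mean of both Serpina3i probes the call was lost (limma adjusted p = 0.0612).

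Serpina3f was higher on every WT doxorubicin array without passing the test. It was at -0.59, -2.65 and -3.71 on WT doxorubicin arrays, against -5.76, -4.46 and -4.32 on WT PBS arrays, none of which was well above background. Its lower bound was 2.29-fold (limma adjusted p = 0.0958). Serpina3f, too, was tested only through the WT doxorubicin group. The same doxorubicin array, replicate 1, was the highest of the 3 for Serpina3n, Serpina3g, Serpina3i and Serpina3f. It is also the WT doxorubicin array with Ddx3y signal and without Esr1 signal, and it is among the 4 arrays of contradictory genotype. Serpina3h was at 0.27, -1.14 and -1.23 on WT doxorubicin arrays and at -1.44, -1.35 and -1.61 on WT PBS arrays, a difference of 0.77 ± 0.36 (limma adjusted p = 0.135). Serpina3b, at 0.20 ± 0.21 (limma adjusted p = 0.523), had groups that overlapped.

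**Figure D2:**
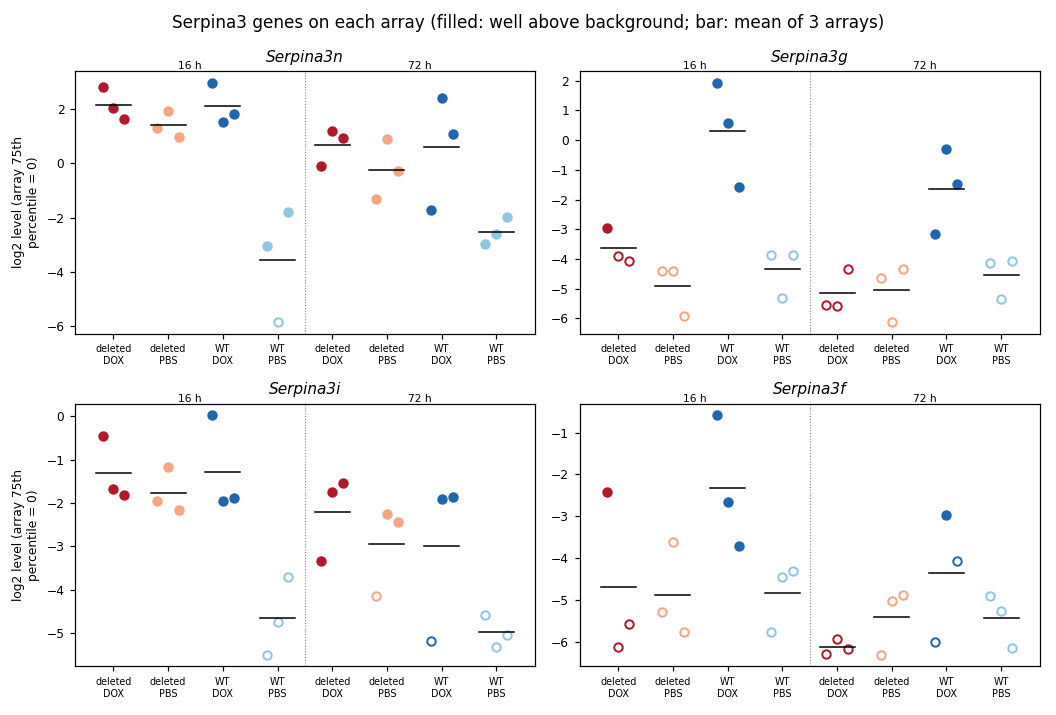
Log2 levels (0 is the 75th percentile of the array) of Serpina3n, Serpina3g, Serpina3i and Serpina3f on each of the 24 arrays by group, with DOX for doxorubicin. Points are arrays, filled where the probe was well above background, and bars are means of 3 arrays. Serpina3n was at 1.53 to 2.98 on WT doxorubicin arrays, against -5.84 to -1.80 on WT PBS arrays at 16 h, and at 0.97 to 1.93 on Top2b-deleted PBS arrays.

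Hepatocyte and neutrophil markers were set beside these rises, since both cell types make serpins. Among 6 tested hepatocyte markers Ttr rose by 4.06 and Apoc3 fell by 0.50 in WT cells at 16 h, while Alb, Apoa1 and Fgb were above background on 0 of 24 arrays. The summed log2 level of the hepatocyte markers was 3.78 to 3.90 on WT doxorubicin arrays, against 3.58 to 3.76 on WT PBS arrays. Of 5 tested neutrophil markers, S100a8, S100a9 and Ly6g (1.85) rose, and Mpo was above background on 0 arrays. S100a8 was well above background on 0 of 3 WT PBS arrays and S100a9 on 1, so no size is given for them. The summed neutrophil level was 6.12 to 6.72 on WT doxorubicin arrays, against 6.40 to 6.45 on WT PBS arrays, a sum carried by the bright Csf3r probe (6.03 to 8.02 over the 24 arrays). What part these markers had in the serpin values was not tested. Among 12 tested regulators of clotting and of the acute phase, 4 rose, among them Saa1 (1.51), Timp3 (1.74) and Saa3, and 2 fell. Saa3 was well above background on 3 of 3 WT doxorubicin and 0 of 3 WT PBS arrays.

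Of 21 tested serine proteases and cofactors that serpins act on, 2 rose and 1 fell, against 27.8% of all genes that passed in either direction. Thbd, the thrombin receptor thrombomodulin, rose by 1.20, St14, the membrane protease matriptase, rose by 2.47, and Htra1 fell by 0.51. Of 10 tested cathepsins, lysosomal proteases, Ctsl rose by 0.83 and Ctsk fell by 1.11.

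Serpinh1 binds procollagen in the endoplasmic reticulum and inhibits no protease. It was at 3.15, 3.88 and 3.79 on WT doxorubicin arrays at 16 h, against 5.0, 4.81 and 4.94 on WT PBS arrays, with no overlap. It fell by 1.31 ± 0.18 (limma adjusted p = 0.000761). Of 19 collagens and collagen-modifying genes tested, 0 rose and 7 fell, with a list median of -0.68 against -0.03 over all genes. The fallers with the smallest adjusted p were Plod1, a lysyl hydroxylase (-1.27), Col3a1 (-2.74) and Col6a2 (-1.46). Of 8 tested fibroblast markers 4 fell, 3 of them collagens that are also on the collagen list, and of 7 smooth muscle and pericyte markers 5 fell. The summed smooth muscle and pericyte level was 4.83 to 5.14 on WT doxorubicin arrays, against 6.32 to 6.70 on WT PBS arrays. The summed fibroblast level was 4.46 to 5.66 on WT doxorubicin arrays, against 4.60 to 5.17 on WT PBS arrays. The part of these cells in the Serpinh1 value was not tested.

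**Figure D3:**
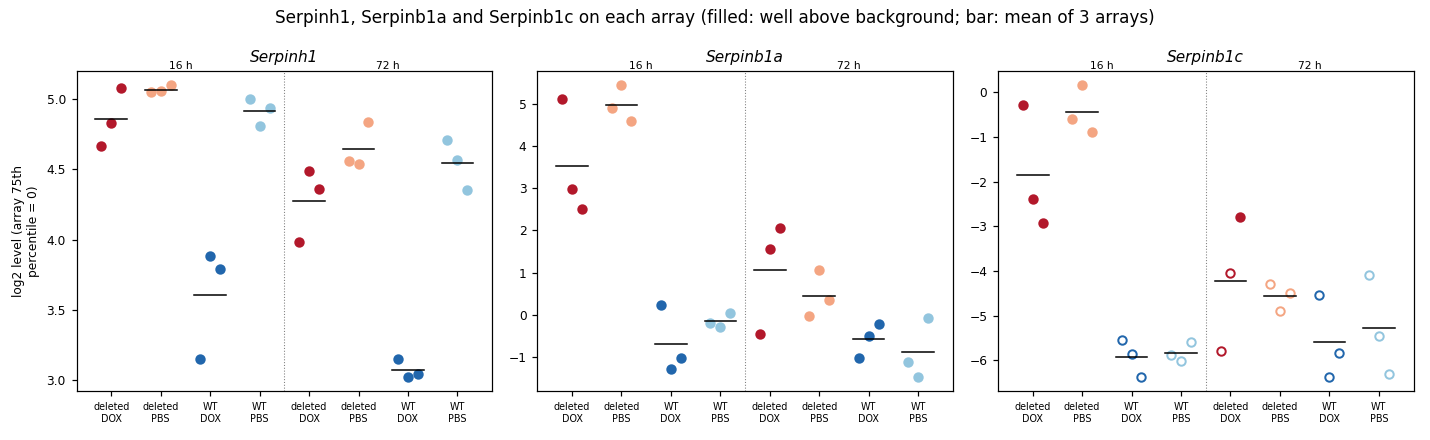
Log2 levels (0 is the 75th percentile of the array) of Serpinh1, Serpinb1a and Serpinb1c on each of the 24 arrays by group, with DOX for doxorubicin. Points are arrays, filled where well above background, and bars are means of 3 arrays. Serpinh1 was at 3.02 to 3.15 on WT doxorubicin arrays at 72 h, against 4.35 to 4.71 on WT PBS arrays. Serpinb1c was above background on all 6 Top2b-deleted arrays of 16 h and on no WT array.

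The Serpinb genes encode serpins without a classical secretion signal that act inside cells. Serpinb6a, whose human counterpart inhibits cathepsin G, was at 5.98, 5.97 and 6.16 on WT doxorubicin arrays at 16 h, against 5.28, 5.37 and 5.39 on WT PBS arrays. It rose by 0.69 ± 0.15 (limma adjusted p = 0.00665). Serpinb6c was at 5.62, 5.56 and 5.76 on WT doxorubicin arrays, against 4.88, 5.05 and 5.09 on WT PBS arrays. Its rise of 0.64 ± 0.15 (limma adjusted p = 0.0112) is not independent of Serpinb6a, given the near-identical probes shown above. Serpinb6d was at 0.57, 0.29 and 0.76 on WT doxorubicin arrays, against -0.32, -0.08 and -0.01 on WT PBS arrays, a rise of 0.68 ± 0.15 (limma adjusted p = 0.00827). In each of these 3 genes every doxorubicin array lay above every PBS array.

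Serpinb6e was at -2.23, -1.95 and -2.05 on WT doxorubicin arrays, against -2.57, -3.38 and -2.98 on WT PBS arrays. Its rise of 0.90 ± 0.21 (limma adjusted p = 0.00964) was lost with normexp background correction and without the 4 arrays of contradictory genotype (limma adjusted p = 0.0605). Serpinb6b was at 4.53, 3.99 and 4.74 on WT doxorubicin arrays, against 3.48, 3.98 and 3.88 on WT PBS arrays, and its 0.64 ± 0.22 did not pass (limma adjusted p = 0.057). Serpinb9, which blocks granzyme B, was at -1.70, -1.26 and -0.68 on WT doxorubicin arrays, against 0.12, -0.39 and -0.33 on WT PBS arrays. It fell by 1.01 ± 0.25 (limma adjusted p = 0.0142), a call lost without WT PBS replicate 1 and without the 4 contradictory arrays (limma adjusted p = 0.0822).

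Serpina9, described in germinal-centre B cells, was at -0.13, -0.47 and -1.15 on WT doxorubicin arrays at 16 h, against 0.17, 0.61 and 0.84 on WT PBS arrays. It fell by 1.12 ± 0.24 (limma adjusted p = 0.00689). Serpina10, the inhibitor that works with protein Z on factor Xa, was at -3.28, -3.52 and -3.32 on WT doxorubicin arrays, 2 of them not well above background, against -2.22, -2.45 and -2.59 on WT PBS arrays. It fell by 0.95 ± 0.19 (limma adjusted p = 0.00512), and with normexp background correction the difference was -0.26 and did not pass.

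**Figure D4:**
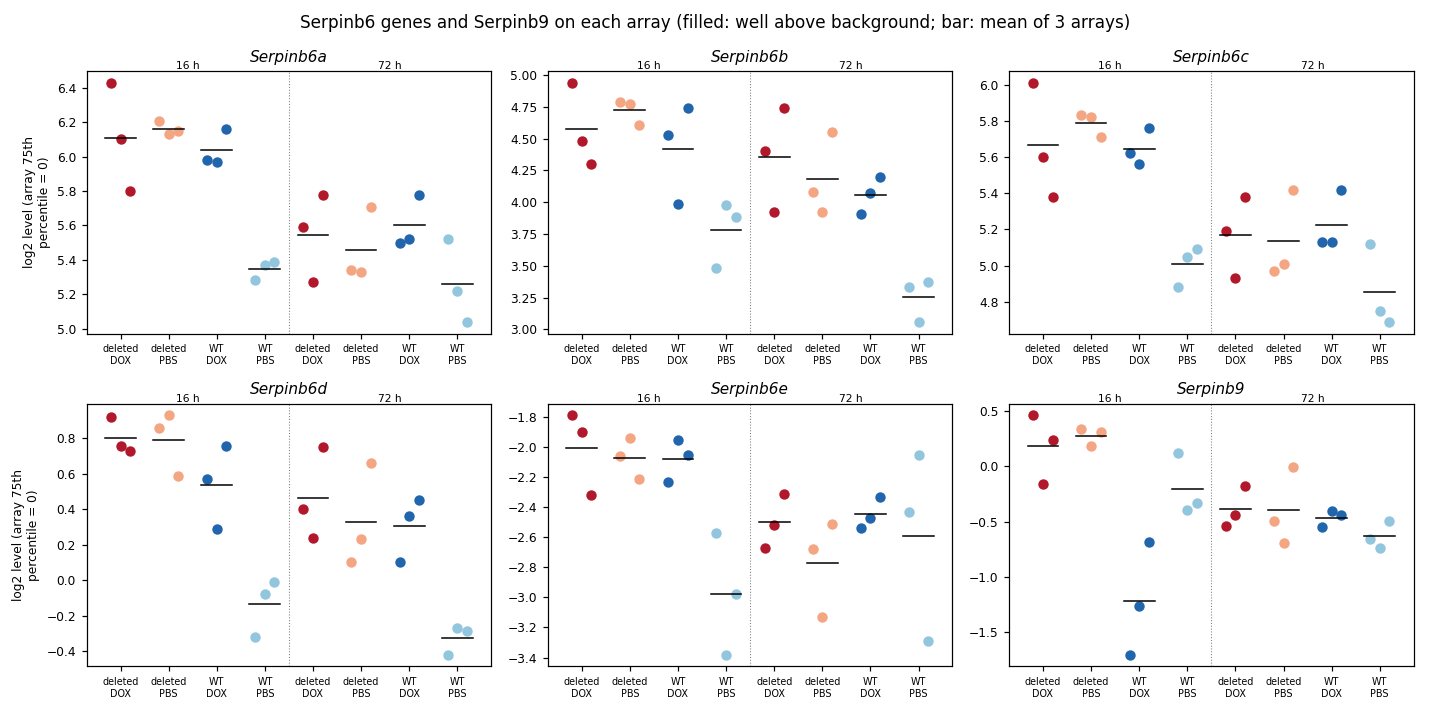
Log2 levels (0 is the 75th percentile of the array) of the 5 Serpinb6 genes and Serpinb9 on each of the 24 arrays by group, with DOX for doxorubicin. Points are arrays, filled where well above background, and bars are means of 3 arrays. Serpinb6a was at 5.97 to 6.16 on WT doxorubicin arrays at 16 h, against 5.28 to 5.39 on WT PBS arrays, and at 6.13 to 6.21 on Top2b-deleted PBS arrays.

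In Top2b-deleted cardiomyocytes at 16 h, 0 of 28 serpins passed after doxorubicin, against 0% of all 18727 genes in the same limma fit. At an unadjusted p under 0.05 there were 2 serpins, Serpinb1a and Serpinb1c, and 794 of all genes. Serpina3n was at 2.84, 2.05 and 1.63 on Top2b-deleted doxorubicin arrays and at 1.31, 1.93 and 0.97 on Top2b-deleted PBS arrays, a difference of 0.77 ± 0.84 (SE). For this gene the Top2b-deleted PBS arrays already stood above all 3 WT PBS arrays. Serpina3g was at -2.97, -3.90 and -4.06 on Top2b-deleted doxorubicin arrays, 1 of them well above background, and was above background on none of the Top2b-deleted PBS arrays. Serpinh1 was at 4.67, 4.83 and 5.08 on Top2b-deleted doxorubicin arrays, against 5.05, 5.06 and 5.10 on Top2b-deleted PBS arrays, a difference of -0.21 ± 0.18 (SE). All 3 Top2b-deleted doxorubicin arrays are on slide 2, with 1 of the Top2b-deleted PBS arrays.

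The test of whether the 16 h responses differ, Top2b-deleted response minus WT response, was passed by 5 of 28 serpins, 1 higher and 4 lower. Among all genes 11.3% passed, 6.11% higher and 5.23% lower. The median was -0.55 over the serpins and 0.00 over all genes. Serpina3n differed by -4.89 ± 1.19 (limma adjusted p = 0.0268) and Serpinh1 by 1.11 ± 0.26 (limma adjusted p = 0.0236). Serpinb6a (-0.74 ± 0.21) and Serpinb6c (-0.77 ± 0.22) passed narrowly. On doxorubicin arrays Serpina3n had a mean of 2.17 in Top2b-deleted and 2.11 in WT cells, against 1.40 and -3.55 on PBS arrays. Serpinb6a and Serpinb6c were also near-equal on doxorubicin arrays, while Serpinh1 was at 4.86 and 3.61. The WT PBS arrays, all with Ddx3y and without Esr1 signal, enter this test too. On PBS arrays genotype and these signals cannot be told apart. Since a WT PBS reading of Serpina3n was not well above background, -4.89 is not a fully measured size. In 12 fits that each left out 1 array the call was kept in 8 for Serpina3n, 5 for Serpinh1, and 3 each for Serpinb6a and Serpinb6c, which also lost it with the authors' value table and the replicate block. Serpina3g did not pass (limma adjusted p = 0.0782), and no size is given since it was well above background on 0 of 3 Top2b-deleted PBS and 0 of 3 WT PBS arrays. With slide as a block 0 serpins and 373 of all genes passed, and no slide held all 4 groups, so that no value within a slide could be had. With the presence of Ddx3y as a covariate 11 serpins and 3031 of all genes passed, against 2125 of all genes without it. Leaving out single arrays gave 1 to 9 serpins and 1009 to 4728 of all genes.

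**Figure D5:**
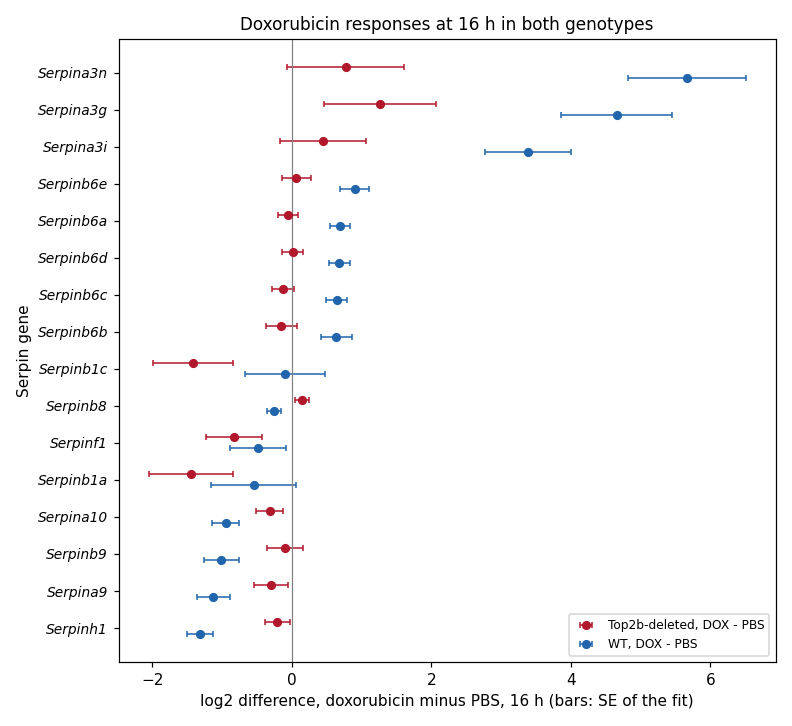
Doxorubicin minus PBS log2 differences at 16 h for 16 serpins that passed in at least 1 comparison, in Top2b-deleted cells (red) and WT cells (blue). Bars are standard errors of the limma fit with 3 arrays per group. Serpina3n differed by 0.77 in Top2b-deleted cells and by 5.66 in WT cells, and Serpinh1 by -0.21 in Top2b-deleted cells and by -1.31 in WT cells. Here too, values of Serpina3g, Serpina3i and Serpinb1c set against readings not well above background are not measured sizes. That of Serpina3n in WT cells rests in part on such a reading.

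The next comparison set Top2b-deleted against WT cells in PBS at 16 h. Serpinb1a and Serpinb1c, counterparts of the human neutrophil elastase inhibitor SERPINB1, were much higher in Top2b-deleted cells. Serpina3n, Serpina3i, Serpinf1 and all 5 Serpinb6 genes were higher as well, and Serpinb8 was lower. In all 12 of 28 serpins passed, 11 higher and 1 lower, against 12.4% of all 18727 genes, 6.71% higher and 5.64% lower. The serpin median was 0.24 and that of all genes -0.01. This comparison shares its WT PBS arrays with the WT doxorubicin comparison, so the same 3 arrays enter both differences. All 3 WT PBS arrays had Ddx3y signal and no Esr1 signal, and all 3 Top2b-deleted PBS arrays had Esr1 signal and no Ddx3y signal, so genotype and these differences between the arrays cannot be told apart in this comparison. Without the 4 arrays of contradictory genotype 8 serpins passed, with slide as a block 9, and within slide 1 7. Shares of all genes under these alternatives are not given here, so their counts are no result about serpins in particular.

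Serpinb1a was at 4.92, 5.45 and 4.61 on Top2b-deleted PBS arrays at 16 h, against -0.21, -0.29 and 0.04 on WT PBS arrays. The difference was 5.15 ± 0.61 (limma adjusted p = 0.000733). On Top2b-deleted doxorubicin arrays it was at 5.12, 2.99 and 2.52. Serpinb1c was at -0.59, 0.16 and -0.89 on Top2b-deleted PBS arrays, and on WT PBS arrays it was not well above background. It was at least 8.42-fold higher (limma adjusted p = 0.000412). Only the Top2b-deleted groups brought Serpinb1c into the 16 h test, so the filter and the p-value share readings. After doxorubicin in Top2b-deleted cells at 16 h Serpinb1c differed by -1.42 and Serpinb1a by -1.45, neither passing. Whether the Serpinb1c probe also reads the Serpinb1a transcript was not tested, so the values of both genes may share signal. Of 5 neutrophil markers tested in the same limma fit 0 passed, with differences of -0.69 to -0.12. Their summed level, carried by Csf3r, was 6.12 to 6.33 on Top2b-deleted PBS arrays, against 6.40 to 6.45 on WT PBS arrays.

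Serpina3n was at 1.31, 1.93 and 0.97 on Top2b-deleted PBS arrays, against -3.03, -5.84 and -1.80 on WT PBS arrays. It was higher by 4.96 ± 0.84 (limma adjusted p = 0.00486). The WT PBS reading of -5.84 was not well above background, so this size is not fully measured. As single arrays were left out the difference was 3.81 to 5.83. Serpina3i was at -1.96, -1.17 and -2.16 on Top2b-deleted PBS arrays and above background on none of the WT PBS arrays. It was at least 3.36-fold higher (limma adjusted p = 0.0148), a call lost without WT PBS replicate 1, without Top2b-deleted PBS replicate 2, within slide 1, with normexp and with the mean of both probes. Of 6 hepatocyte markers Ttr was higher (1.93) and Tat and Apoa2 were lower, and the part of such cells was not tested. Serpina3g was above background on 0 of 3 Top2b-deleted PBS arrays and 0 of 3 WT PBS arrays.

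The Serpinb6 genes were higher by 0.78 (Serpinb6c) to 0.94 (Serpinb6b). Serpinb6a was at 6.21, 6.13 and 6.15 on Top2b-deleted PBS arrays, against 5.28, 5.37 and 5.39 on WT PBS arrays (0.82 ± 0.15, limma adjusted p = 0.0067). Serpinb6d was at 0.86, 0.93 and 0.59 on Top2b-deleted PBS arrays, against -0.32, -0.08 and -0.01 on WT PBS arrays (0.92 ± 0.15, limma adjusted p = 0.00404). In neither gene did the groups overlap. Serpinb6b was at 4.79, 4.77 and 4.61 on Top2b-deleted PBS arrays, against 3.48, 3.98 and 3.88 on WT PBS arrays (limma adjusted p = 0.0231). Serpinb6e was at -2.06, -1.94 and -2.21 on Top2b-deleted PBS arrays, against -2.57, -3.38 and -2.98 on WT PBS arrays (0.91 ± 0.21, limma adjusted p = 0.0199). Both Serpinb6b and Serpinb6e lost the call within slide 1 and without the 4 arrays of contradictory genotype. Serpinb6b also lost it with slide as a block and with no filter on dim probes. Serpinb6e also lost it with normexp and with the Ddx3y covariate. In 12 fits that each left out 1 array it was kept in 7 for Serpinb6b and in 8 for Serpinb6e.

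Serpinf1 encodes the secreted anti-angiogenic factor PEDF, a serpin without inhibitory activity. It was at 0.74, 1.78 and 0.69 on Top2b-deleted PBS arrays, against 0.13, -0.45 and -0.85 on WT PBS arrays. It was higher by 1.46 ± 0.40 (limma adjusted p = 0.0394), and its second probe by 1.29. The call was lost in 7 of 13 alternatives, among them slide as a block and the Ddx3y covariate. Fibroblast markers moved with it: 4 of 8 tested were higher, among them Postn by 2.82, and the summed level was 5.51 to 6.61 on Top2b-deleted PBS arrays, against 4.60 to 5.17 on WT PBS arrays. Their part in the Serpinf1 value was not tested. Serpinb8 was at 4.32, 4.27 and 4.21 on Top2b-deleted PBS arrays, against 4.63, 4.54 and 4.77 on WT PBS arrays. The difference was -0.38 ± 0.10 (limma adjusted p = 0.0333), and the call was lost in 9 of 13 alternatives. Serpinh1, at 0.15 ± 0.18, did not pass. Of 19 collagen genes 6 were higher, among them P4ha1 (0.73) and Leprel1, which was well above background on 0 of 3 WT PBS arrays, and 1, Fkbp10 (-1.45), was lower. Of 21 tested proteases and cofactors, 3 were higher, led by Procr (3.95) and Masp1 (3.95), and 2 were lower, led by F10 (-1.45), against 12.4% of all genes that passed in either direction.

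At 72 h after doxorubicin in WT cells the number of serpins past the threshold was 1 of 27, Serpinh1. Among all 19643 genes 2.82% passed, 0.998% higher and 1.82% lower. Serpinh1 was at 3.15, 3.02 and 3.04 on WT doxorubicin arrays, against 4.71, 4.57 and 4.35 on WT PBS arrays, again with no overlap. It fell by 1.47 ± 0.17 (limma adjusted p = 0.0127). The difference was -1.55 within slide 3 and -1.30 on slide 4. The call was lost (limma adjusted p up to 0.082) without WT PBS replicate 2, WT PBS replicate 3 or WT doxorubicin replicate 3, with differences of -1.57 to -1.39 over all single arrays left out. Of 18 collagen genes tested 0 passed at 72 h.

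At an unadjusted p under 0.05 there were 10 of 27 serpins and 4795 of 19643 genes in this comparison, and the slides differed in level for several of them. With slide as a block 10 serpins and 2662 of all genes passed, and within slide 3 alone 2 serpins, Serpinh1 and Serpini1, and 795 of all genes. With the slide block Serpina3g, Serpinb6b, Serpinb6d, Serpini1, Serping1 and Serpina1a were higher and Serpina9, Serpina11, Serpinb8 and Serpinh1 lower. A second, dimmer Serpina1a probe differed by -0.18 without the block. Serpina3g was at -3.17, -0.29 and -1.46 on WT doxorubicin arrays at 72 h, and on 0 of 3 WT PBS arrays was it well above background. It was at least 3.76-fold higher, with a limma adjusted p of 0.0581 without the block and 0.0267 with it. Only the WT doxorubicin group brought Serpina3g into the 72 h test. Serpina3n was at -1.71, 2.40 and 1.09 on WT doxorubicin arrays, against -2.98, -2.62 and -1.96 on WT PBS arrays (3.11 ± 0.91, limma adjusted p = 0.0786). Replicate 2 had the lowest value of both genes among the WT doxorubicin arrays at 72 h, and it is the WT doxorubicin array with an Esr1 signal of 6.62.

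Serping1, the C1 inhibitor of complement and contact activation, was at 1.98, 3.09 and 2.67 on WT doxorubicin arrays at 72 h, against 0.72, 0.46 and 1.97 on WT PBS arrays. The difference of 1.53 ± 0.61 did not pass without the slide block (limma adjusted p = 0.161) and passed with it (0.0394), and both probes of the gene differed by 1.53. By slide it was 1.94 on slide 3 and 0.70 on slide 4. Serpinb6b was at 3.91, 4.07 and 4.20 on WT doxorubicin arrays at 72 h, against 3.33, 3.06 and 3.37 on WT PBS arrays, a difference of 0.81 ± 0.23 (limma adjusted p = 0.0736). Serpina9 was at -1.20, -2.04 and -0.95 on WT doxorubicin arrays, against 0.06, 0.41 and 0.40 on WT PBS arrays (-1.69 ± 0.43, limma adjusted p = 0.0602). In both genes the groups did not overlap. Serpini1, neuroserpin, an inhibitor of tissue plasminogen activator, was at -1.13, -0.58 and 0.04 on WT doxorubicin arrays, against -2.58, -2.44 and -0.33 on WT PBS arrays. It differed by 1.65 on slide 3 and by 0.38 on slide 4. Of 9 endothelial markers 0 passed in limma, with a median difference of 1.46 against -0.08 over all genes. Their summed level was 6.57 to 7.17 on WT doxorubicin arrays, against 5.55 to 6.88 on WT PBS arrays, and their part in these serpin values was not tested. Of 7 tested neutrophil markers, S100a8, S100a9 and Retnlg rose at 72 h, well above background on 0, 1 and 0 of 3 WT PBS arrays, as did Ttr (3.42) among 6 hepatocyte markers. Of 22 tested proteases and cofactors 0 passed.

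In Top2b-deleted cells at 72 h, 0 of 27 serpins passed after doxorubicin in limma, against 0% of all 19643 genes. At an unadjusted p under 0.05 there were 0 serpins and 428 of all genes, and with the replicate number as a block 0 serpins passed as well. Serpinh1 was at 3.98, 4.49 and 4.36 on Top2b-deleted doxorubicin arrays, against 4.56, 4.54 and 4.84 on Top2b-deleted PBS arrays (-0.37 ± 0.17, SE). Serpina3n was at -0.09, 1.21 and 0.94 on Top2b-deleted doxorubicin arrays and at -1.31, 0.89 and -0.29 on Top2b-deleted PBS arrays (0.92 ± 0.91, SE). Serpina3g was above background on none of these 6 arrays. The difference between the genotypes' responses at 72 h was passed by 0 serpins and 0% of all genes, with 2 serpins, Serpinh1 (1.10) and Serpina3g, at an unadjusted p under 0.05 and 1384 of all genes.

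Between Top2b-deleted and WT cells in PBS at 72 h, 0 of 27 serpins passed, against 2.14% of all genes, 1.06% higher and 1.08% lower. At an unadjusted p under 0.05 there were 6 serpins and 2513 of all genes. With the replicate number as a block 4 serpins passed. The share of all genes under that block is not given here, so the count is no result about serpins in particular. Serpinb6b (0.93, limma adjusted p = 0.0144) and Serpinb6d (0.66) were higher in Top2b-deleted cells, and Serpina3h (-0.71) and Serpina11 (-0.58) were lower. Serpinb6b was at 4.08, 3.92 and 4.55 on Top2b-deleted PBS arrays, against 3.33, 3.06 and 3.37 on WT PBS arrays, with no overlap. Serpinb1a was at -0.03, 1.05 and 0.34 on Top2b-deleted PBS arrays, against -1.13, -1.48 and -0.09 on WT PBS arrays, a difference of 1.35 ± 0.60 that did not pass (limma adjusted p = 0.383). Serpinb1c was above background on none of these 6 arrays.

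The WT responses at both times were set against each other in a fit of all 24 arrays, as the 72 h response minus the 16 h response. Here 1 of 29 serpins passed, Serpinb9. Among all 20023 genes 5.59% passed, 2.08% higher and 3.52% lower. Serpinb9 was at -0.55, -0.40 and -0.44 on WT doxorubicin arrays at 72 h, against -0.66, -0.74 and -0.49 on WT PBS arrays. With the fall at 16 h the difference of responses was 1.17 ± 0.32 (limma adjusted p = 0.0372). It was lost in 8 of 24 fits without 1 array and without the 4 arrays of contradictory genotype. Serpinh1 fell at both times, and its responses differed by -0.16 ± 0.25 (limma adjusted p = 0.766). No slide held arrays of both times, so in the levels time and slide cannot be told apart.

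Of the 29 detected serpins 12 passed in none of the 9 comparisons: Serpina11, Serpina1a, Serpina1c, Serpina1e, Serpina1f, Serpina3b, Serpina3f, Serpina3h, Serpinb3c, Serpine2, Serping1 and Serpini1. Serpine2, the thrombin inhibitor protease nexin 1, was at -1.40, -0.96 and -0.38 on WT doxorubicin arrays at 16 h and at -1.0, -1.22 and -0.75 on WT PBS arrays, a difference of 0.07 ± 0.25 (SE). The alpha-1 antitrypsin genes Serpina1a and Serpina1c, with probes that differ in 1 base, differed by 0.96 and 0.53 in WT cells at 72 h. A second Serpina1a probe, well above background on 14 arrays, differed by -0.18. Serpina1e differed by 0.20 with the probe used and by 1.35 with a dimmer probe, well above background on 18 arrays. Serpina11 was at 1.33 to 2.58 on WT doxorubicin arrays at 72 h, against 1.68 to 3.31 on WT PBS arrays, with replicate 4 lowest in both groups.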

How the data were processed

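Arrays were scanned by the submitters, and the deposited scanner file of each array comes from Feature Extraction (Agilent, version 10.7.3.1, per the file headers). The deposited intensity is the processed signal after detrending and background subtraction, not normalized across arrays according to those headers, beside raw mean and background intensity and spot flags. A deposited value table holds a linear ratio, the processed signal over the median of its array, as found by setting both side by side. Between 42.9% and 52.6% of spots per array were well above background, 0 were saturated, and 89 to 277 outlier spots per array were left out. Precision is limited by the number of arrays.

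Levels are the log2 of the deposited intensity less the 75th percentile of its array. Spots of a probe were averaged. Genes were fitted in limma 3.58.1 under R 4.3.3 (lmFit, contrasts.fit, eBayes), the 4 groups of a time together (8 residual degrees of freedom), if their probe was well above background throughout 1 group of that time. P-values were adjusted by Benjamini-Hochberg over all genes tested. Errors of differences are standard errors. The comparisons, 9 in all, and the alternatives (quantile or normexp, the value table, filters, mean of probes, slide or replicate block, Ddx3y, genotype label, 1 fit for all groups, single slides, single arrays left out) are those named in the text. The fits without 4 arrays and on arrays with Ddx3y signal alone were chosen after seeing the data. The fit was tested on simulated data.

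Deviations from the group means correlated between same-numbered arrays at 0.27 to 0.72 in both 72 h comparisons with Top2b-deleted cells in PBS. Elsewhere they correlated at -0.12 to 0.47. At 72 h same-numbered arrays of all groups also shared a slide, so these correlations cannot separate pairing of samples from slide. Whether the numbers pair samples was not tested, and the replicate block is given only as an alternative fit. The labels do not say that arrays are separate animals, so p-values measure the spread between these samples. A serpin that is included in the counts is not reported here. Named in full are the other serpins past the threshold in any comparison, and listed genes with the smallest adjusted p. Members and gene lists were chosen with earlier results of these data known. Probe positions are mm9, per the file headers. Whether a probe lies in an exon or UTR was not analysed here. Symbols of 60 of 61 serpins matched the RefSeq table.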

Additional observations from a re-analysis of the deposited data

Results flagged for a closer look

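Differences of response between the groups that passed their own test are listed here. In the 16 h test of the Top2b-deleted response minus the WT response, Serpina3n differed by -4.89, Serpinb6c by -0.77, Serpinb6a by -0.74 and Serpinh1 by 1.11. Each of these lost the threshold with slide as a block. Top2b-deleted PBS replicate 3 is the 1 PBS array on the slide of the Top2b-deleted doxorubicin arrays. Serpina3n, Serpinb6a and Serpinb6c were near-equal between the genotypes on doxorubicin arrays and differed on PBS arrays. In the test of the WT responses, 72 h minus 16 h, Serpinb9 differed by 1.17.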

How the results depend on the processing

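Counts of serpins past the threshold depended most on the genotype label and on blocks. Except where stated, shares of all genes are not given for these alternatives, so the counts are no result about serpins in particular. On each of the 4 contradictory arrays Top2b lay outside the range of the remaining 16 h arrays of the genotype not in its title. With genotype from the characteristic the counts were 0 in place of 12 for WT doxorubicin at 16 h, 0 in place of 12 for Top2b-deleted against WT in PBS at 16 h, 0 in place of 5 for the difference of responses at 16 h and 0 in place of 1 for the difference of WT responses. The difference of responses at 16 h had 3 with the value table, 1 with no filter, 0 with the slide block and 11 with the Ddx3y covariate. Top2b-deleted against WT in PBS at 16 h had 7 within slide 1. WT doxorubicin at 72 h had 2 with the value table, 2 with genes above background on every array, 2 within slide 3, 7 with all 8 groups in 1 fit, 10 with the slide block and 11 with the replicate block, although same-numbered WT arrays did not all correlate. Top2b-deleted against WT in PBS at 72 h had 3 with the slide block, 4 with the replicate block and 2 with all 8 groups in 1 fit. The replicate block gave 4 in place of 5 for the difference of responses at 16 h, and 2 in place of 1 for the difference of WT responses. That last comparison had 0 with the value table, 0 with no filter and 0 without the 4 contradictory arrays. Leaving out 1 array gave 11 to 15 serpins for WT doxorubicin at 16 h, and 3626 to 6642 of all genes. Top2b-deleted against WT in PBS at 16 h had 7 to 13, and 950 to 3809 of all genes. The difference of responses at 16 h had 1 to 9, and 1009 to 4728 of all genes. WT doxorubicin at 72 h had 0 to 4 serpins. Top2b-deleted against WT in PBS at 72 h had 0 to 1, and 207 to 678 of all genes. The difference of WT responses had 0 to 2, and 609 to 2326 of all genes. The cause of these moves was not tested. Of the 31 calls of single serpins, 31 were kept with quantile normalization, 27 with normexp and 23 with no filter, and 0 results reversed under any alternative run. Among all genes, WT doxorubicin at 72 h ranged between 1 and 1566 calls as single arrays were left out. Dim serpins such as Serpina3f, Serpina3g, Serpina3i and Serpinb1c have only bounds where no array of a group is above background.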

Other observations

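Some serpin levels are also given by the Esr1 probe on PBS arrays. On the 8 PBS arrays with Esr1 signal, 6 Top2b-deleted and 2 WT arrays of 72 h, Serpina3n was at -2.98 to 1.93, and on the 4 PBS arrays without it, all WT, at -5.84 to -1.80, with overlap. Serpinb1a was at -1.48 to 5.45 on the 8 arrays and at -0.29 to 0.04 on the 4, also with overlap. Serpinb1c was at -5.45 to 0.16 on the 8 arrays and at -6.30 to -5.59 on the 4, without overlap, but among the 8 it was well above background on only the 3 Top2b-deleted arrays of 16 h. These arrays were grouped after seeing the data, and no test was made.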
